A study of Mus musculus with 12 samples.

Results

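The 9 genes described here make up the MHC class II antigen presentation pathway as measured in cultured mouse osteoclasts: the classical chains H2-Ab1, H2-Aa and H2-Eb1, the peptide exchange chains H2-DMa, H2-DMb1 and H2-DMb2, the invariant chain Cd74, and the regulators Ciita and Rfx5. They were chosen by name, with earlier results of these data known. All 9 were found among the 55414 gene IDs of the count tables, and all 9 were among the 13403 genes with enough counts to be tested. Osteoclasts, the multinucleated cells that resorb bone, were grown from bone marrow macrophages of male mice aged 7 to 8 weeks. Macrophages were expanded with the growth factor M-CSF (30 ng/ml per the design text), and the osteoclast-inducing cytokine RANKL was added from day 3 for 4 days. Messenger RNA was sequenced in 12 libraries, 3 per group. The groups were Notch2 mutant cells with the Hes1 deletion, wild type cells with the Hes1 deletion, Notch2 mutant cells with Hes1 loxP (a Hes1 gene flanked by loxP sites and still present), and wild type cells with Hes1 loxP. All 4 groups thus carry a modified Hes1 gene. The labels name neither the Notch2 mutation nor how Hes1 was deleted. The receptor Notch2 sits at the cell surface, and Hes1, a repressor of transcription, is among the genes that its signal can switch on.

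MHC class II molecules display peptides from engulfed proteins to CD4+ T cells, mainly on dendritic cells, B cells and macrophages. The alpha and beta chains assemble with the invariant chain, which blocks the peptide groove until endosomal proteases remove it and H2-DM swaps its last fragment for a peptide. Ciita is the master co-activator of the pathway. It does not bind DNA itself but docks on the RFX complex (Rfx5, Rfxap, Rfxank), CREB and NF-Y, which sit on the X and Y boxes shared by class II promoters. Osteoclasts and dendritic cells can both arise from myeloid precursors, and class II display is usually associated with the dendritic route.

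Depth was 13832368 to 19293772 counts assigned to genes per library. Hes1, the targeted gene, had 0, 1 and 1 counts where it was deleted in Notch2 mutant cells and 0, 0 and 2 counts where it was deleted in wild type cells. With the loxP allele it had 3, 2 and 2 counts in Notch2 mutant cells and 6, 11 and 6 counts in wild type cells, too few to test. Levels are given in CPM, the counts of a gene scaled to a library total of 1000000 counts assigned to genes. A gene is said to rise or fall where the edgeR quasi-likelihood test gave a Benjamini-Hochberg adjusted p below 0.05 over all 13403 genes. Where another fit is named, the words refer to the adjusted p over the genes of that fit. Because these are bulk cultures, fewer cells of a type and less RNA per cell cannot be told apart.

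The 6 chain genes lie within 0.197 Mb on chromosome 17 (GRCm38): H2-DMa at 34119541 to 34139101, H2-DMb2 at 34143307 to 34151555, H2-DMb1 at 34153072 to 34160230, H2-Ab1 at 34257689 to 34269419, H2-Aa at 34282744 to 34287823 (minus strand) and H2-Eb1 at 34305867 to 34316674. Coordinates are those of whole genes with exons, introns and UTRs, from GENCODE M21, and all but H2-Aa lie on the plus strand.

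Promoters of 3 chain genes are shown because they hold short matches to motifs of the factors on which Ciita docks. Binding was not measured. RefSeq (GRCm38.p6) gave a promoter for 6 of the 9 genes, and H2-Ab1, Cd74 and Ciita had no entry. The stretches run from 130 to 31 bases before the RefSeq start and overlap no annotated exon. They are chr17:34287854-34287953 on the minus strand for H2-Aa, chr17:34305737-34305836 on the plus strand for H2-Eb1 and chr17:34145119-34145218 on the plus strand for H2-DMb2. The H2-DMb2 stretch lies inside the GENCODE span of that gene, because its RefSeq start (34145249) is downstream of the GENCODE start (34143307). Capitals mark the motif matches.
H2-Aa: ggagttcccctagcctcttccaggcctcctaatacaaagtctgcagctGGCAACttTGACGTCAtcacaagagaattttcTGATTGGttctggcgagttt
H2-Eb1: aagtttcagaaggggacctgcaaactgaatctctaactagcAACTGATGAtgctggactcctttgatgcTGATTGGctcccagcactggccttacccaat
H2-DMb2: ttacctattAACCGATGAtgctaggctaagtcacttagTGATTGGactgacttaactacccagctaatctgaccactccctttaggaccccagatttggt

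The motifs searched, on both strands of the 250 bases before the start, were TGATTGG (the Y box bound by NF-Y), AACNGATGA (an X box of the class II kind), TGACGTCA (the CREB palindrome, at the X2 position) and GGCAAC (an RFX half-site). None of these motifs overlapped another in the printed stretches. The letters were chosen after these promoters had been seen, so the matches describe the promoters and test nothing. The Y box was found in 7.23% of the 32851 RefSeq mouse promoters, the X box in 0.572% (188 promoters of 175 genes), the palindrome in 1.55% and the half-site in 10.4%. H2-Eb1, H2-DMb1 and H2-DMb2 held both the X box and the Y box. In H2-Eb1 the X box lay 89 to 81 bases before the start and the Y box 61 to 55 bases before it, with 19 bases between them. In H2-DMb2 the X box lay 121 to 113 bases before the start and the Y box 92 to 86, with 20 bases between them. H2-DMb1, not printed, held an X box 92 to 84 and a Y box 63 to 57 bases before its start, again 20 bases apart. H2-Aa held the half-site, the palindrome and a Y box in that order, with 16 bases between palindrome and Y box. Rfx5 held 2 Y boxes in reverse orientation (113 and 54 bases before its start) and H2-DMa a reversed half-site 7 bases before its start. Letters absent from these windows say nothing of whether a factor binds there.

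Of the 3 members outside this cluster, Cd74 lies on chromosome 18 at 60803848 to 60812652 and Ciita on chromosome 16 at 10480059 to 10528418. Rfx5 lies on chromosome 3 at 94954075 to 94961561, 0.538 Mb from the osteoclast protease gene Ctsk and 3.05 Mb from Notch2. All 3 are on the plus strand.

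Class II RNA was present in every library, with Cd74 far above the other 8 genes. Per kilobase of merged exons and over the 12 libraries, Cd74 averaged 39.4 ± 6.79 CPM per kb (SD, n = 12), and its lowest library, at 25.4, lay above the highest H2-Ab1 library, at 11.2. H2-DMb1 followed at 8.35 ± 1.33 CPM per kb, H2-Ab1, the beta chain of the I-A molecule, at 8.20 ± 1.74 and H2-Eb1 at 6.55 ± 1.41. H2-Aa, the I-A alpha chain, averaged 3.38 ± 1.11 CPM per kb, Rfx5 2.49 ± 0.286 and H2-DMa 1.99 ± 0.427. H2-DMb2, at 0.345 ± 0.1496, and Ciita, at 0.273 ± 0.0843 CPM per kb, came last. Adjacent genes in this order had overlapping ranges except Cd74 over H2-DMb1 and H2-DMa over H2-DMb2. The order of H2-DMb1 and H2-Ab1 was not settled, with H2-DMb1 higher in 6 of 12 libraries, nor that of H2-DMb2 and Ciita, with H2-DMb2 higher in 7.

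The order below Cd74 depended on the length used, which was tried both ways. H2-Aa has 3798 bp of merged exons but a principal transcript of 1128 bp. Per kb of principal transcript it averaged 11.4 ± 3.75 CPM per kb (SD, n = 12), behind H2-Ab1 at 17.4 ± 3.69 and ahead of H2-DMb1 at 9.99 ± 1.60 and H2-Eb1 at 7.63 ± 1.65. H2-Aa lay above H2-DMb1 in 7 of 12 libraries on that scale. Cd74 was first on both scales, at 46.9 ± 8.09 CPM per kb of principal transcript, and Ciita and H2-DMb2 were the last on both.

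Some class II chains were scarce or absent. H2-Oa and H2-Ob, which form the H2-DM inhibitor H2-O, had 80 and 89 counts over the 12 libraries, and H2-Eb2 had 37. H2-Ea-ps, the locus of the alpha chain that would pair with H2-Eb1, had 0 counts in all 12 libraries, which allows a level of up to 0.0151 CPM (3 counts over the 12 libraries, counting error only). None of these 4 was abundant enough to be tested. H2-DMb1 and H2-DMb2 share 254 of the 1604 and 1741 stretches of 75 bases in their transcripts and are 94.6% identical over the aligned part, so reads may have been lost or split between them, and the low H2-DMb2 counts (4 to 17 per library) are uncertain.

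**Figure D1:**
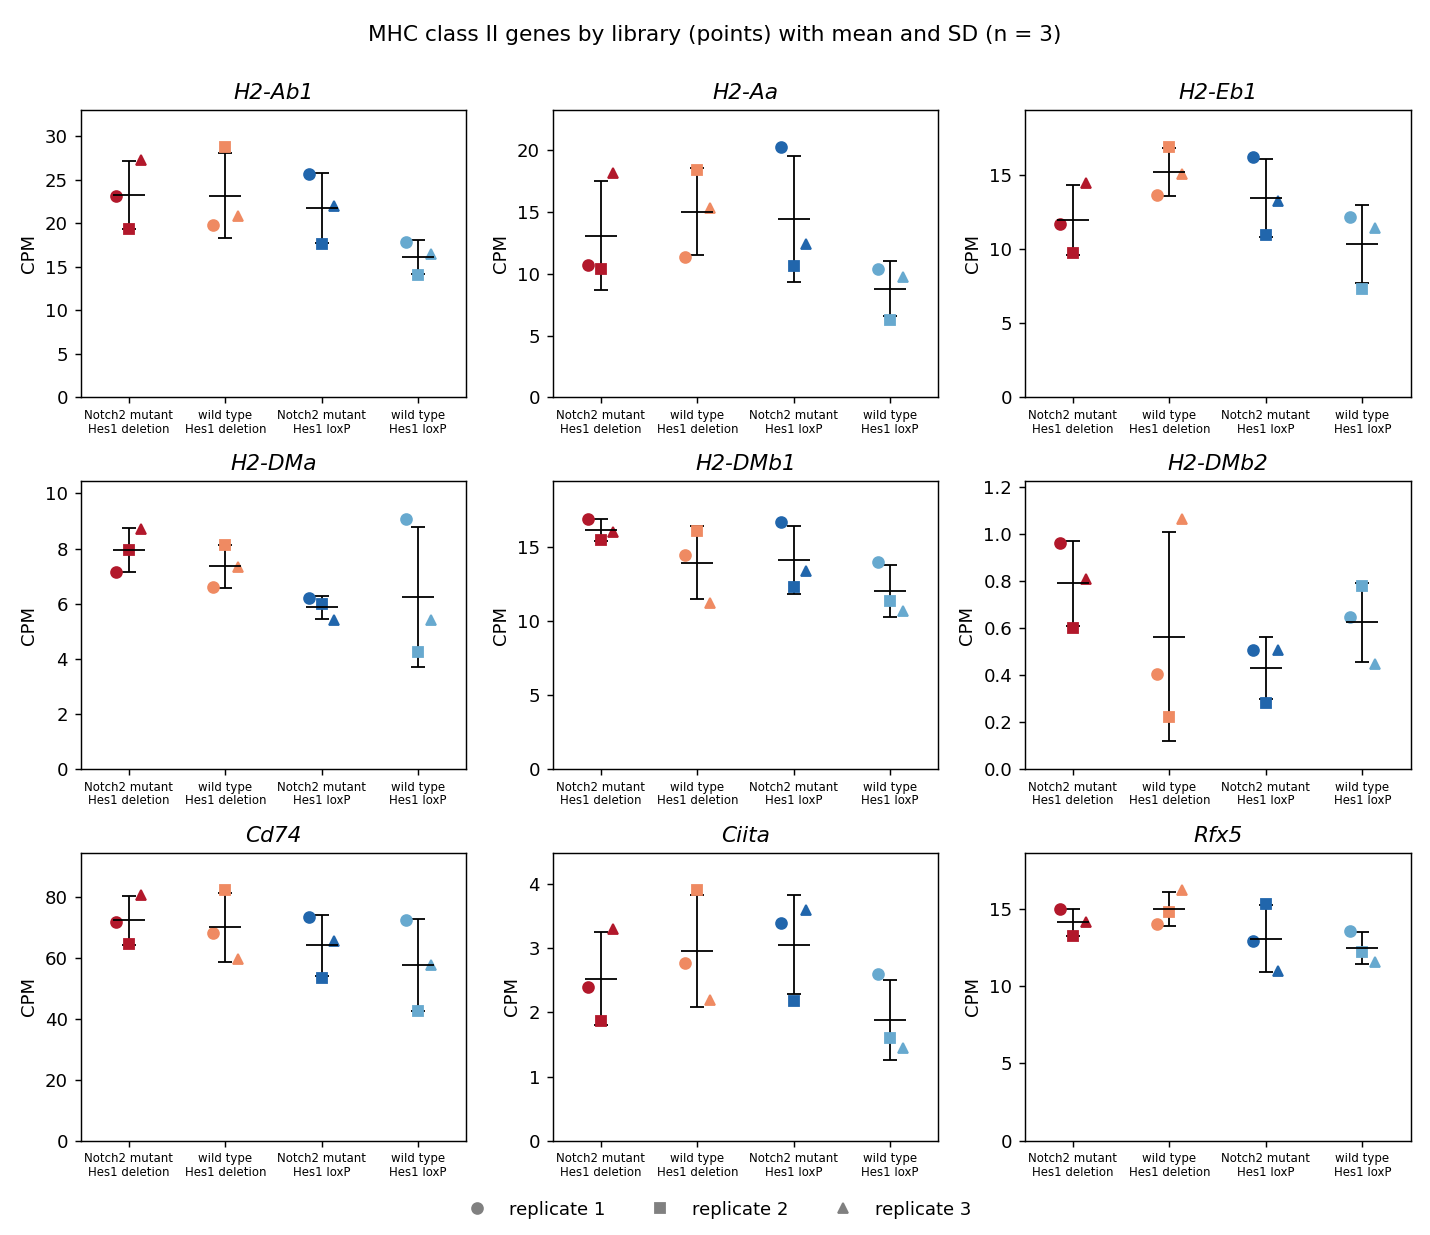
Levels of the 9 class II genes in CPM (vertical axes, each starting at 0) in the 12 libraries, grouped by genotype. Points are libraries with symbols for replicate numbers, and bars are mean and SD of 3. Wild type Hes1 loxP replicate 2 is the lowest library for H2-Ab1 (14.1 CPM), H2-Aa (6.27), H2-Eb1 (7.31), H2-DMa (4.25) and Cd74 (42.6).

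In osteoclasts that carried Hes1 loxP, the Notch2 mutation went with higher values of the 3 classical chains and Ciita, but none of the 9 genes passed the test in the fit of all 12 libraries. The background in this comparison was 104 genes past the threshold, 0.776% of those tested (edgeR; unadjusted p was below 0.05 for 14.2%). The members' log2 fold changes ran from -0.52 to 0.75 with a median of 0.26, against a median of 0.00 over all genes tested. With 1 library left out, that median ran from 0.13 (without Notch2 mutant Hes1 loxP replicate 1) to 0.37 (without wild type Hes1 loxP replicate 1). Of the 9, 7 were positive, 4 had an unadjusted p below 0.05 (H2-Ab1, H2-Aa, H2-Eb1 and Ciita), and 1 was higher with no overlap between groups, against 7.2% of genes tested that were higher without overlap.

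H2-Aa had 20.2, 10.7 and 12.4 CPM in Notch2 mutant Hes1 loxP libraries, against 10.4, 6.27 and 9.73 CPM in wild type Hes1 loxP libraries. Each Notch2 mutant library lay above all 3 wild type libraries, the closest pair being 10.7 and 10.4 CPM. The log2 fold change was 0.74 ± 0.26 (SE; 95% interval 0.20 to 1.28; edgeR adjusted p = 0.193). H2-Ab1 had 25.7, 17.6 and 21.9 CPM in Notch2 mutant and 17.9, 14.1 and 16.5 CPM in wild type libraries. The groups overlapped by 1 library, Notch2 mutant replicate 2, and the log2 fold change was 0.45 ± 0.16 (edgeR adjusted p = 0.199). H2-Eb1, the I-E beta chain, had 16.2, 10.9 and 13.2 CPM in Notch2 mutant and 12.2, 7.31 and 11.5 CPM in wild type libraries. These groups overlapped, and the log2 fold change was 0.41 ± 0.18 (edgeR adjusted p = 0.310).

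Cd74, whose product chaperones the chains and fills the peptide groove, differed less. It had 73.5, 53.6 and 65.6 CPM in Notch2 mutant Hes1 loxP libraries, against 72.7, 42.6 and 57.8 CPM in wild type Hes1 loxP libraries. The groups overlapped over most of their range, with a log2 fold change of 0.19 ± 0.15 (edgeR adjusted p = 0.645). The H2-DM genes, which catalyse peptide exchange, gave no common direction. H2-DMb1 had a log2 fold change of 0.26 ± 0.14, H2-DMa one of -0.04 ± 0.20 and H2-DMb2, at 7, 5 and 9 counts in Notch2 mutant against 9, 15 and 8 in wild type libraries, one of -0.52 ± 0.51. Exons of H2-DMa overlap those of the abundant gene Brd2 on the opposite strand over 10.4% of their length, and the strand setting of the counting is not given, so its reads may not be separate from those of Brd2.

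Of the regulators, Ciita had 3.40, 2.18 and 3.60 CPM in Notch2 mutant Hes1 loxP libraries, against 2.60, 1.61 and 1.45 CPM in wild type Hes1 loxP libraries. That is 47, 39 and 64 counts against 36, 31 and 26, so the precision was low, and Notch2 mutant replicate 2 lay within the wild type range. The log2 fold change was 0.75 ± 0.30 (95% interval 0.12 to 1.38; edgeR adjusted p = 0.259). Rfx5, the DNA-binding RFX subunit, had 12.9, 15.4 and 11.02 CPM in Notch2 mutant and 13.6, 12.2 and 11.6 CPM in wild type libraries, with a log2 fold change of 0.10 ± 0.11. Its interval, -0.14 to 0.34, leaves out changes of the size seen for H2-Aa and Ciita. Exons of Rfx5 overlap the antisense gene B230398E01Rik over 26.8% of their length, but that gene had 40 counts in all 12 libraries.

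With no filter on low counts, 2.62% of 25080 genes passed and so did H2-Ab1 (0.45 ± 0.10, edgeR adjusted p = 0.000466), H2-Aa (0.73 ± 0.12, adjusted p = 4.09e-07) and H2-Eb1 (0.41 ± 0.12, adjusted p = 0.0295). The fold changes hardly moved, but the standard errors were smaller, for H2-Aa 0.12 against 0.26 in the filtered fit. These calls rest on that smaller estimate of the spread, and why it differed was not tested.

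Between libraries with the same replicate number in these 2 groups, deviations from the group means correlated at 0.249, 0.269 and 0.135. The labels do not say what a number marks, so the pairing was picked from these data. Within such pairs the classical chains were higher in Notch2 mutant cells each time. The log2 ratios of pairs 1, 2 and 3 were 0.52, 0.32 and 0.41 for H2-Ab1. For H2-Aa they were 0.96, 0.77 and 0.35, and for H2-Eb1 0.41, 0.58 and 0.21. Ciita (0.39, 0.44 and 1.32), H2-DMb1 (0.25, 0.12 and 0.33) and Cd74 (0.02, 0.33 and 0.18) were also higher in 3 of 3 pairs, against 2 for H2-DMa and 1 each for Rfx5 and H2-DMb2. The share of all genes that were higher in 3 of 3 pairs was not computed, so these counts cannot be called unusual. An edgeR fit of these 6 libraries with the replicate number as a block was added after the data were seen, so its calls are a description. In it, 1019 of 13022 genes (7.83%) passed the threshold, and so did 4 of the 8 class II genes tested there. H2-Ab1 rose with a log2 fold change of 0.44 ± 0.09 (adjusted p = 0.00224) and H2-Aa with 0.71 ± 0.12 (adjusted p = 0.000447). H2-Eb1 rose with 0.41 ± 0.11 (adjusted p = 0.0233) and Cd74 with 0.19 ± 0.06 (adjusted p = 0.0410), while Ciita, at 0.73 ± 0.25, did not pass (adjusted p = 0.0832). With the same block over all 12 libraries none of the 9 passed (148 genes, 1.1%, did), with adjusted p of 0.175 for H2-Aa and 0.201 for H2-Ab1.

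**Figure D2:**
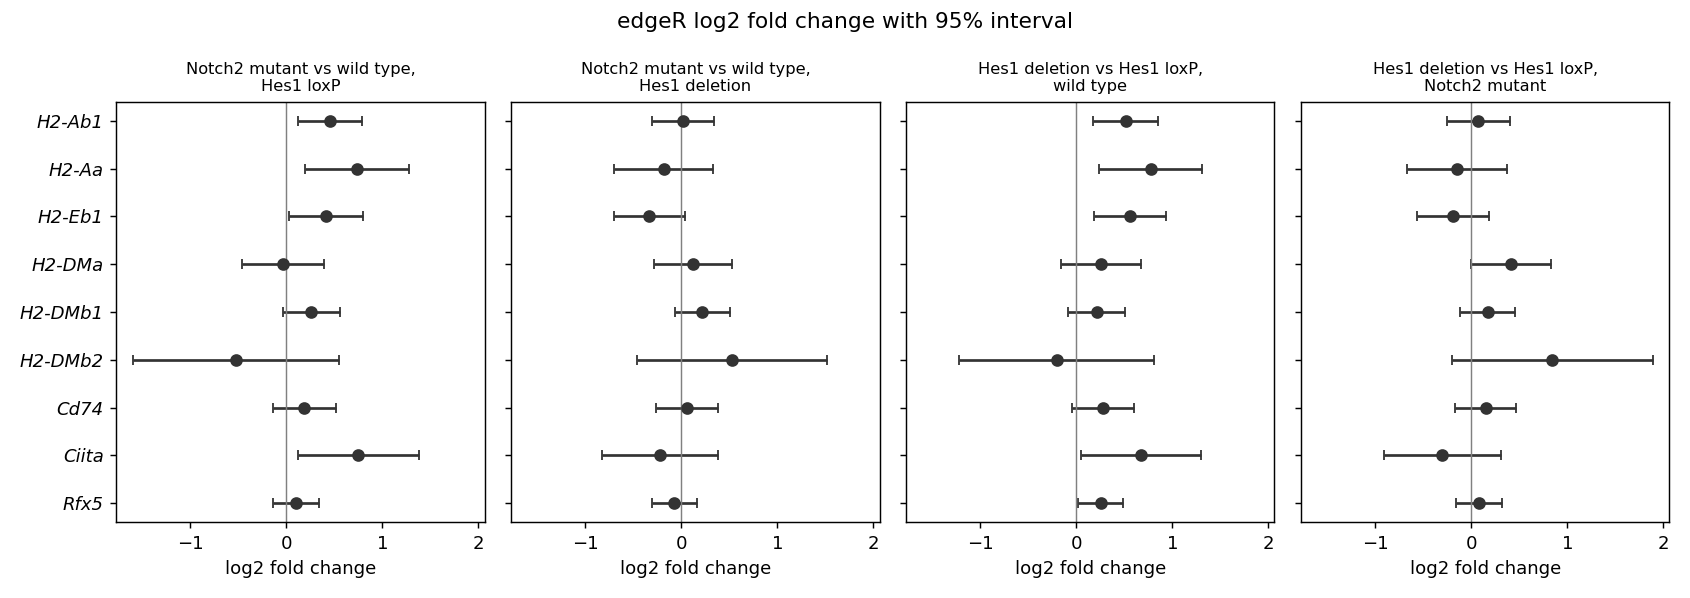
Log2 fold change (horizontal axes) with 95% interval of each class II gene in the 4 comparisons, from the edgeR fit of 12 libraries without a replicate block. Intervals of H2-Ab1, H2-Aa, H2-Eb1 and Ciita lie above 0 in both comparisons with wild type Hes1 loxP cells, but no adjusted p was below 0.05.

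In cells with the Hes1 deletion, Notch2 mutant and wild type values of the class II genes overlapped for every member. The 9 log2 fold changes had a median of 0.02, against 0.00 over all genes tested, 5 were positive, and none passed the test or separated the groups (2 genes in all passed, 0.0149%; 4.9% were higher and 7.48% lower without overlap). H2-Ab1 had 23.1, 19.4 and 27.2 CPM in Notch2 mutant Hes1 deletion libraries, against 19.8, 28.7 and 20.9 CPM in wild type Hes1 deletion libraries, and the ranges overlapped almost entirely. H2-Aa had 10.7, 10.4 and 18.1 CPM in Notch2 mutant Hes1 deletion libraries and 11.3, 18.4 and 15.4 CPM in wild type Hes1 deletion libraries, so the highest libraries of both groups stood level and only the lower ones differed. H2-Eb1 had 11.7, 9.75 and 14.5 CPM in Notch2 mutant Hes1 deletion libraries and 13.7, 16.9 and 15.0 CPM in wild type Hes1 deletion libraries. Notch2 mutant replicates 1 and 2 lay below the wild type range and replicate 3 within it, and the log2 fold change was -0.33 ± 0.18 (95% interval -0.71 to 0.04; edgeR adjusted p = 0.795). Cd74 had 72.0, 64.7 and 80.7 CPM in Notch2 mutant Hes1 deletion libraries and 68.2, 82.3 and 59.9 CPM in wild type Hes1 deletion libraries, with a log2 fold change of 0.06 ± 0.15. Ciita had 2.40, 1.87 and 3.30 CPM in Notch2 mutant Hes1 deletion libraries and 2.78, 3.91 and 2.19 CPM in wild type Hes1 deletion libraries, with a log2 fold change of -0.23 ± 0.29. The highest library of each of these genes was replicate 3 among the Notch2 mutant and replicate 2 among the wild type libraries.

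The difference between the 2 Notch2 effects was tested as an interaction (the effect with the Hes1 deletion minus the effect with Hes1 loxP). No gene of the 13403 passed in edgeR (0%; DESeq2 also called 0; unadjusted p was below 0.05 for 506 genes, 3.78%), so no class II gene did. Unadjusted p was below 0.05 for 3 of the 9: H2-Eb1 at -0.75 ± 0.25, H2-Aa at -0.92 ± 0.35 and Ciita at -0.97 ± 0.42, each with an edgeR adjusted p of 0.999. H2-Ab1 was at -0.44 ± 0.22 and Cd74 at -0.13 ± 0.22. With no filter on low counts, 0.251% of genes passed, H2-Aa (edgeR adjusted p = 7.85e-05) and H2-Eb1 (adjusted p = 0.00558) among them. The standard error of H2-Aa was then 0.17 against 0.35 with the filter, and the calls rest on that smaller estimate.

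Deleting Hes1 in wild type cells likewise went with higher classical chains, again without a class II gene past the threshold. This comparison uses the same 3 wild type Hes1 loxP libraries as the Notch2 comparison above, so the 2 are not independent. Only 5 genes, 0.0373% of those tested, passed. The 9 genes had a median log2 fold change of 0.28, against 0.00 over all genes tested. Of the 9, 8 were positive, 5 had an unadjusted p below 0.05 (5.93% of genes tested did), and 4 were higher without overlap (7.28% of genes tested were): H2-Ab1, H2-Aa, H2-Eb1 and Rfx5.

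For H2-Ab1 the 19.8, 28.7 and 20.9 CPM of wild type Hes1 deletion libraries stood against 17.9, 14.1 and 16.5 CPM in wild type Hes1 loxP libraries, with a log2 fold change of 0.51 ± 0.16 (95% interval 0.18 to 0.85; edgeR adjusted p = 0.547). For H2-Aa the values were 11.3, 18.4 and 15.4 CPM with the deletion against 10.4, 6.27 and 9.73 CPM with loxP, a log2 fold change of 0.77 ± 0.25 (edgeR adjusted p = 0.656). For H2-Eb1 they were 13.7, 16.9 and 15.0 CPM with the deletion against 12.2, 7.31 and 11.5 CPM with loxP, a log2 fold change of 0.56 ± 0.18 (edgeR adjusted p = 0.630). In each case the lowest deletion library stood above the highest loxP library. Rfx5 had 14.1, 14.9 and 16.2 CPM with the deletion and 13.6, 12.2 and 11.6 CPM with loxP, a small separation with a log2 fold change of 0.25 ± 0.11. Rfx5 lies 0.538 Mb from Ctsk, which fell in this comparison, and whether its position plays a part was not tested. Ciita had 2.78, 3.91 and 2.19 CPM with the deletion and 2.60, 1.61 and 1.45 CPM with loxP, so the groups overlapped at a log2 fold change of 0.67 ± 0.30. Cd74 was at 0.28 ± 0.15, H2-DMa at 0.25 ± 0.20, H2-DMb1 at 0.21 ± 0.14 and H2-DMb2 at -0.20 ± 0.48. With no filter on low counts, 0.538% of genes passed, with H2-Ab1 (edgeR adjusted p = 9.25e-05), H2-Aa (adjusted p = 1.45e-07), H2-Eb1 (adjusted p = 0.000974) and Cd74 (0.27 ± 0.07, adjusted p = 0.00996) among them. Here too the standard error of H2-Aa was smaller, 0.12 against 0.25 with the filter.

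In Notch2 mutant cells the Hes1 deletion was accompanied by a median log2 fold change of 0.08 over the 9 genes, against 0.00 over all genes tested. None of the 9 passed the test, which 5 genes (0.0373%) passed overall. H2-DMa had 7.14, 7.94 and 8.73 CPM in Notch2 mutant Hes1 deletion libraries, against 6.22, 5.97 and 5.40 CPM in Notch2 mutant Hes1 loxP libraries. These groups did not overlap, but the log2 fold change of 0.41 ± 0.20 had an edgeR adjusted p of 0.977. H2-DMb2 also separated, at 14, 10 and 13 counts against 7, 5 and 9 (0.84 ± 0.50), which makes 2 of 9 higher without overlap, against 8.1% of genes tested. H2-Ab1 was at 0.07 ± 0.16, H2-Aa at -0.15 ± 0.25, H2-Eb1 at -0.19 ± 0.18, Cd74 at 0.15 ± 0.15 and Ciita at -0.30 ± 0.29.

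The summed classical chains reached 45.5, 39.5 and 59.8 CPM in Notch2 mutant Hes1 deletion libraries and 44.8, 64.0 and 51.3 CPM in wild type Hes1 deletion libraries. They reached 62.1, 39.2 and 47.6 CPM in Notch2 mutant Hes1 loxP libraries and 40.4, 27.6 and 37.7 CPM in wild type Hes1 loxP libraries. The wild type Hes1 loxP group had the lowest mean, 35.2 ± 6.74 CPM (SD, n = 3), but its highest library exceeded the lowest library of each Notch2 mutant group. Wild type Hes1 loxP replicate 2 was the lowest of all 12, and it weighs in both comparisons that use that group. Without it, the Notch2 effect with Hes1 loxP was 0.53 for H2-Aa, 0.36 for H2-Ab1, 0.20 for H2-Eb1 and 0.00 for Cd74 (log2). The Hes1 deletion effect in wild type cells was then 0.57 for H2-Aa, 0.42 for H2-Ab1, 0.35 for H2-Eb1 and 0.10 for Cd74. The values of H2-Eb1 and Cd74 thus moved by more than 1.5 times in both comparisons. Without Notch2 mutant Hes1 loxP replicate 1, the highest library of that group, the Notch2 effect on H2-Aa was 0.43, on H2-Eb1 0.27 and on Cd74 0.08. Without wild type Hes1 deletion replicate 2, the highest of its group, the Hes1 deletion effect in wild type cells was 0.32 on H2-Ab1 and 0.59 on H2-Aa.

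**Figure D3:**
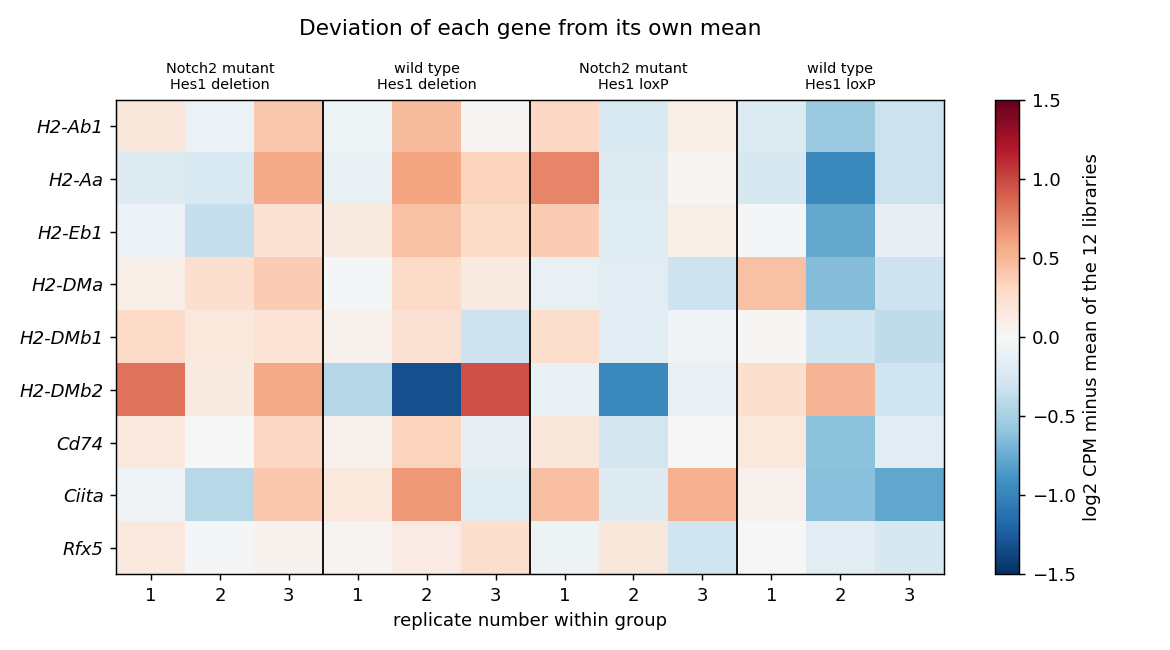
Deviation of log2 CPM from each gene's mean over the 12 libraries (colour, red above and blue below), with libraries in columns by group and replicate number. The classical chains, Cd74 and Ciita move together from library to library, and H2-DMb2 and Rfx5 do not follow them.

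Most class II genes varied together between libraries. Across the 12 libraries, Cd74 was compared with the 8 other genes (log2(CPM + 1), two-sided permutation tests with Benjamini-Hochberg adjustment over the 8). Libraries were permuted without regard to group, so differences between groups enter these p-values. H2-Ab1 followed Cd74 most closely, with Pearson r = 0.867 (permutation p = 0.00023, adjusted p = 0.00184) and Spearman rho = 0.853 (permutation p = 0.00078, adjusted p = 0.00624). For H2-DMb1 r was 0.798 (permutation p = 0.00114, adjusted p = 0.00453) with rho = 0.790 (permutation p = 0.00336, adjusted p = 0.00896), and for Ciita r was 0.762 (permutation p = 0.00304, adjusted p = 0.00453) with rho = 0.818 (permutation p = 0.00181, adjusted p = 0.00724). H2-Eb1 (r = 0.787, rho = 0.748), H2-DMa (r = 0.783, rho = 0.699) and H2-Aa (r = 0.768, rho = 0.699) had permutation p of 0.00297, 0.00249 and 0.00340 for r, each 0.00453 after adjustment, and 0.00718, 0.0145 and 0.0141 for rho, adjusted to 0.0144, 0.0193 and 0.0193. Rfx5 (r = 0.246, permutation p = 0.445, adjusted p = 0.509; rho = 0.154, permutation p = 0.636, adjusted p = 0.727) and H2-DMb2 (r = -0.113, permutation p = 0.734, adjusted p = 0.734; rho = -0.070, permutation p = 0.836, adjusted p = 0.836) did not pass.

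The 2 libraries farthest from the median Cd74 level were wild type Hes1 loxP replicate 2 (42.6 CPM) and Notch2 mutant Hes1 loxP replicate 2 (53.6 CPM). Without them r was 0.787 for H2-Ab1, 0.818 for H2-DMb1 and 0.766 for Ciita, and 0.573 for H2-Aa, 0.579 for H2-DMa and 0.484 for H2-Eb1, so the last 3 relations rest partly on those libraries. Without wild type Hes1 loxP replicate 2 alone, these 3 no longer passed (permutation tests, adjusted p of 0.0902, 0.0879 and 0.0929 for H2-Aa, H2-DMa and H2-Eb1). After each group's mean was subtracted, r with Cd74 was 0.893 for H2-Eb1, 0.854 for H2-Ab1, 0.827 for Ciita, 0.767 for H2-Aa, 0.758 for H2-DMb1 and 0.748 for H2-DMa. Without wild type Hes1 loxP replicate 2 it was 0.956 for Ciita, 0.897 for H2-Ab1, 0.878 for H2-DMb1, 0.809 for H2-Eb1, 0.703 for H2-Aa and 0.548 for H2-DMa.

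**Figure D4:**
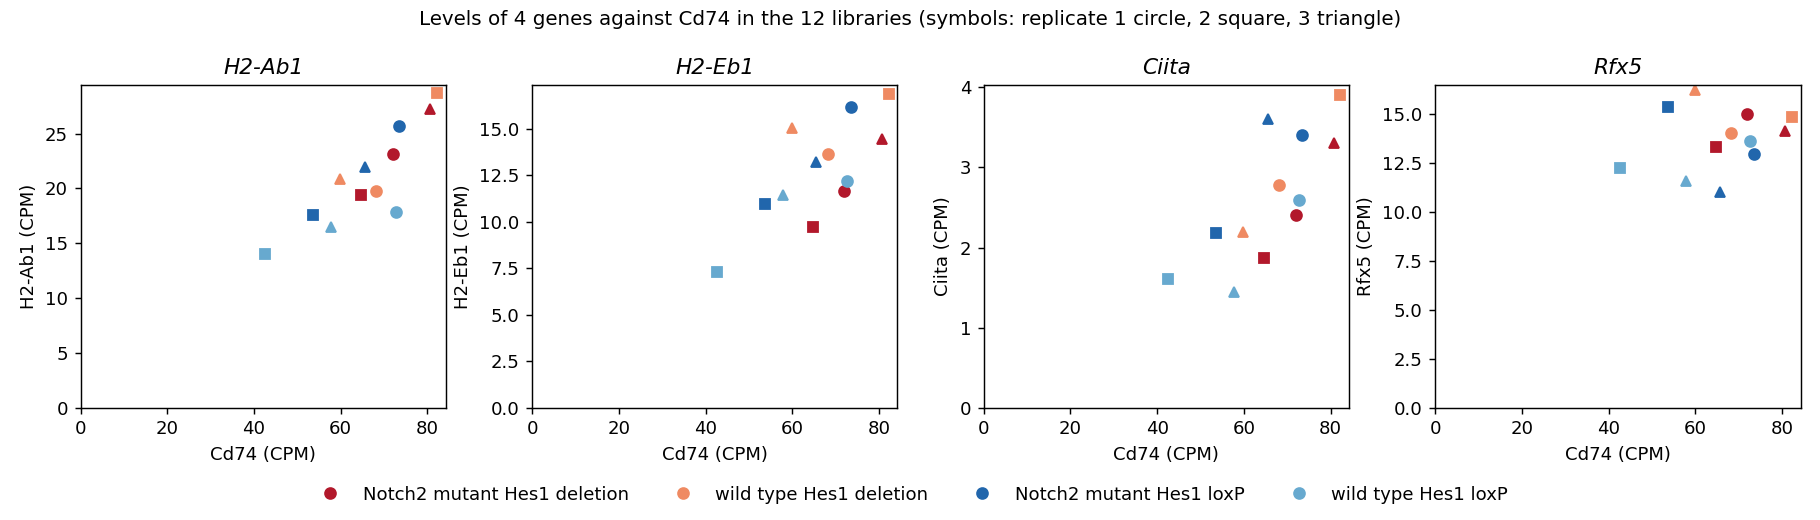
Levels in CPM of H2-Ab1, H2-Eb1, Ciita and Rfx5 (vertical axes) against Cd74 (horizontal axes) in the 12 libraries, coloured by group. H2-Ab1 (r = 0.867), H2-Eb1 (0.787) and Ciita (0.762) climb with Cd74, while for Rfx5 r is 0.246 (r on the log2(CPM + 1) scale).

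Over all genes tested, the likeness to the class II pattern was measured as the Pearson correlation, over the 12 libraries, with the mean z-score of H2-Ab1, H2-Aa, H2-Eb1 and Cd74. These 4 entered the mean and took ranks 1 to 4. Ciita came 8th of 13403 (r = 0.842), although it did not enter the mean. H2-DMb1 came 201st (r = 0.670), H2-DMa 315th (0.632), Rfx5 2864th (0.307) and H2-DMb2 9194th (-0.179). The 10 most alike genes outside the pathway were Traf3ip3 (r = 0.908), Gm19391 (0.895), Pold4 (0.883), Dapp1 (0.841), Tmub2, Cxcr4 and Map3k10 (each 0.839), Cd34 (0.837), BC028528 (0.834) and 2310001H17Rik (0.829). They were picked as the highest of 13403 values over 12 points, so the values are a description. Gm19391 had 6 to 14 counts per library. Cxcr4 encodes a chemokine receptor and Cd34 a surface protein of blood progenitors.

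Some markers of dendritic cells had higher values where the class II chains did, others did not, and their part in the result was not tested. Of 15 markers, 10 were abundant enough to be tested and none passed in any comparison in the 12-library fit. Among the defining genes, Ccl17 had 0 counts in all 12 libraries, Siglech had 23 counts in all, and Clec9a had 3 to 13 and Flt3 8 to 24 counts per library. Summed over the 15, the level was 138 to 170 CPM in Notch2 mutant Hes1 deletion, 117 to 172 in wild type Hes1 deletion, 128 to 150 in Notch2 mutant Hes1 loxP and 103 to 152 CPM in wild type Hes1 loxP libraries, so the groups overlapped. Most of that sum was Ccr2, a receptor that monocytes also carry, at 66.8 to 126 CPM. With Hes1 loxP the Notch2 effect was 0.92 ± 0.35 (log2) for Flt3, the receptor for the dendritic cell growth factor (edgeR adjusted p = 0.233), and 0.56 ± 0.20 for Zbtb46, a dendritic cell transcription factor (adjusted p = 0.199), both without overlap between groups. That makes 2 of 10 higher without overlap, against 7.2% of genes tested, and Flt3 rests on 49 against 27 counts per group. The Notch2 effect was 0.38 ± 0.17 for Itgax, which encodes CD11c, and 8 of the 10 were positive with a median of 0.21. Clec10a, a lectin of dendritic cells and macrophages, was at -0.26 ± 0.13, and Irf4 and Ccl22 were at 0.06 ± 0.34 and 0.05 ± 0.31. For the Hes1 deletion in wild type cells 9 of 10 were positive with a median of 0.31, with Flt3 at 1.09, Clec9a at 0.98 and Clec10a at -0.16. In the ranking by likeness to the class II pattern, Clec9a came 71st (r = 0.749), Ccr2 85th (0.739), Flt3 163rd (0.686), Zbtb46 807th (0.534) and Itgax 821st (0.532). Ranks were drawn for these picked markers only, not for other tested ones such as Clec10a, Irf4 and Ccl22. They do not describe the list as a whole.

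B cells also carry class II. Ighm, the immunoglobulin heavy chain gene, had 6.06 to 13.2 CPM, and the defining B cell genes Ms4a1 and Pax5 had 45 and 54 counts over all 12 libraries. The 10 B cell markers summed to 17.02 to 18.01 CPM in Notch2 mutant Hes1 deletion, 13.3 to 21.7 in wild type Hes1 deletion, 13.8 to 15.0 in Notch2 mutant Hes1 loxP and 10.6 to 16.4 CPM in wild type Hes1 loxP libraries. None of the 5 tested passed in any comparison. Of these 5, 4 were positive both for the Notch2 mutation with Hes1 loxP (median 0.22) and for the Hes1 deletion in wild type cells (median 0.65), and their part was not tested either. Of 12 macrophage markers, 10 were negative in the Notch2 comparison with Hes1 loxP and 3 fell (Msr1, Fcgr1 and Adgre1; log2 fold changes of -0.47, -0.83 and -0.42, edgeR adjusted p of 0.0075, 0.0127 and 0.0159), with a list median of -0.38, beside 0.634% of genes tested that fell. The 2 positive ones, Cd68 and Csf1r, were at 0.15 ± 0.07 and 0.12 ± 0.05 and did not pass. Of the 12 osteoclast markers, 1 rose, beside 0.142% of genes tested, and 11 were positive (median 0.19). Of 10 stromal markers, 9 were tested and 1 fell (median -0.44). They summed to 200, 116 and 245 CPM in Notch2 mutant Hes1 loxP libraries, against 295, 268 and 248 CPM in wild type Hes1 loxP libraries. Of the 8 neutrophil markers, 1 fell and all 8 were negative (median -0.35). For the Hes1 deletion in wild type cells, none of the macrophage, neutrophil or stromal markers passed, with medians of -0.19, -0.40 and 0.29, and 1 of 12 osteoclast markers fell (median -0.04), beside 0.0373% of genes tested that passed. That gene was Ctsk, the main collagen-degrading protease of osteoclasts, at 4586 ± 455 CPM in wild type Hes1 deletion and 9026 ± 208 CPM in wild type Hes1 loxP libraries (SD, n = 3 each; log2 fold change -0.99, edgeR adjusted p = 4.84e-07). Ctsk was also lower with the deletion in Notch2 mutant cells. It averaged 5048 ± 219 CPM in Notch2 mutant Hes1 deletion and 10630 ± 434 CPM in Notch2 mutant Hes1 loxP libraries (SD, n = 3 each). Why Ctsk was lower was not tested. The part of these markers in the class II values was not tested.

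The DNA-bound partners of Ciita were nearly level: Rfxap, Rfxank, Nfya, Nfyb, Nfyc and Creb1 had log2 fold changes between -0.07 and 0.07 for the Notch2 mutation with Hes1 loxP, none past the threshold. In the route from interferon gamma to Ciita, 0 of 10 genes passed in the 12-library fit (smallest edgeR adjusted p = 0.195). Of these, 5 were positive and 5 negative, with a median of -0.02. Irf1, an interferon-induced transcription factor that acts on the Ciita gene, was at -0.33 ± 0.22 (edgeR adjusted p = 0.540). It averaged 39.3 ± 6.13 CPM in Notch2 mutant and 51.0 ± 26.1 CPM in wild type Hes1 loxP libraries (SD, n = 3 each). Of 6 endosomal processing genes, 1 fell, beside 0.634% of genes tested that fell. Ctsl, a lysosomal protease, averaged 641 ± 15.9 CPM in Notch2 mutant Hes1 loxP and 941 ± 43.5 CPM in wild type Hes1 loxP libraries (SD, n = 3 each), with a log2 fold change of -0.53 ± 0.09 (edgeR adjusted p = 0.0136). Ctss, the protease that trims the invariant chain in antigen-presenting cells, averaged 472 ± 37.2 CPM in Notch2 mutant and 620 ± 98.7 CPM in wild type libraries (SD, n = 3 each). It did not pass in that fit, at -0.37 ± 0.09 (edgeR adjusted p = 0.0625), although the groups did not overlap. Among these 6 genes, 3 were lower and 1 was higher without overlap, against 11.1% and 7.2% of genes tested. Of 6 genes of class II turnover and co-stimulation none passed. Cd86, a co-stimulatory ligand, was at -0.45 ± 0.20, and March1, the ubiquitin ligase that removes class II from the surface, was at -0.15 ± 0.18.

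**Figure D5:**
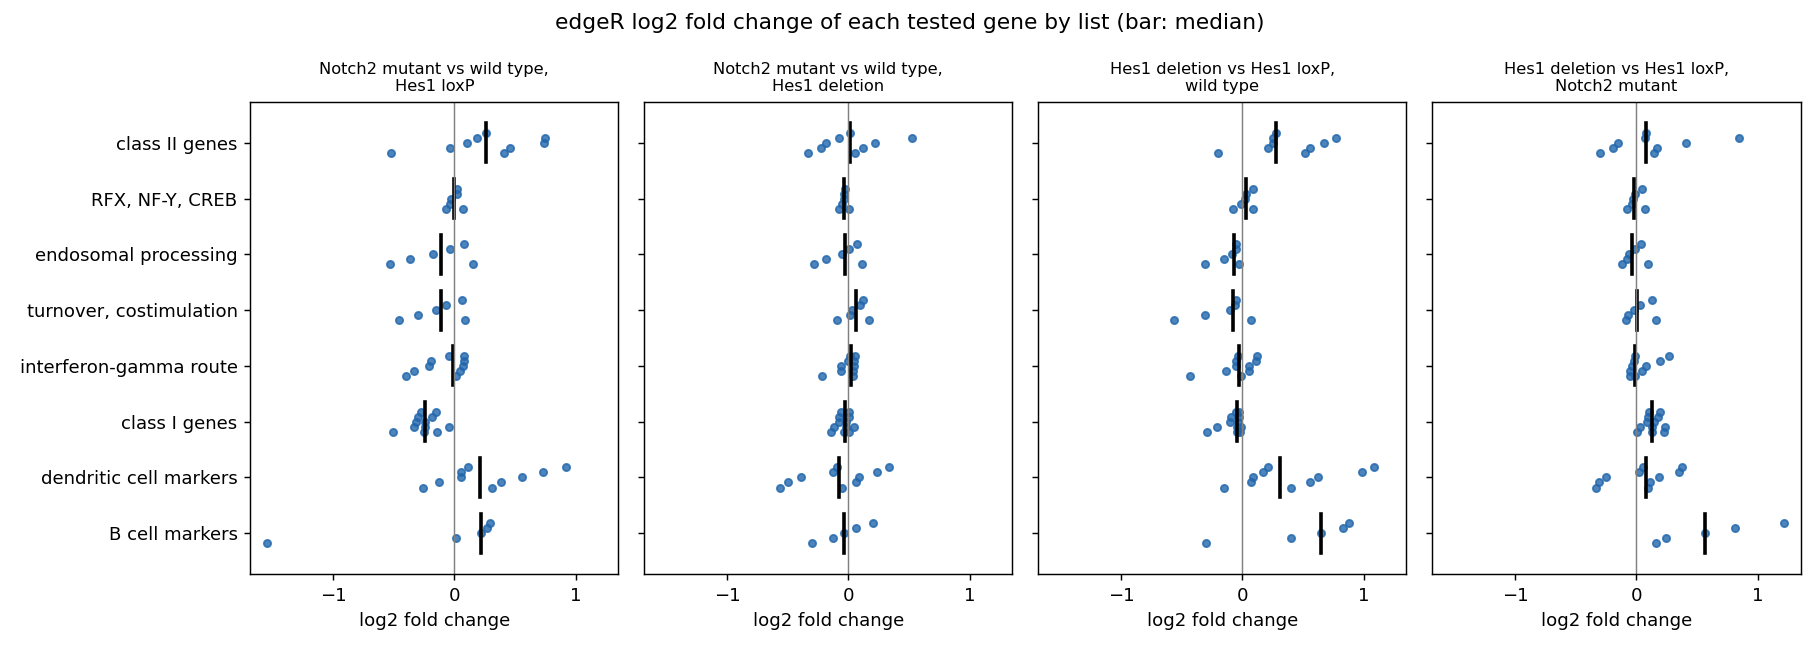
Log2 fold change (horizontal axes) of each tested gene in 8 lists, in the 4 comparisons, with a bar at the median of each list. For the Notch2 mutation with Hes1 loxP the class II median is 0.26 and the class I median -0.25.

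MHC class I genes, which present peptides made inside the cell, had lower values under the Notch2 mutation with Hes1 loxP, without passing the test in the 12-library fit. All 12 class I pathway genes had negative log2 fold changes, from -0.51 to -0.05 with a median of -0.25, 9 had an unadjusted p below 0.05 (14.2% of genes tested did) and 5 were lower without overlap (11.1% of genes tested were), but 0 of 12 passed (smallest edgeR adjusted p = 0.0761, Psmb8). Nlrc5, the class I counterpart of Ciita, averaged 29.3 ± 0.715 CPM in Notch2 mutant Hes1 loxP and 42.8 ± 12.7 CPM in wild type Hes1 loxP libraries (SD, n = 3 each), at -0.51 ± 0.14 (edgeR adjusted p = 0.0930). The transplantation antigen H2-K1 averaged 825 ± 52.1 CPM in Notch2 mutant and 1018 ± 138 CPM in wild type libraries (SD, n = 3 each), at -0.28 ± 0.08, and B2m, the shared light chain, was at -0.24 ± 0.07. Summed, the 12 reached 4731, 4122 and 4640 CPM in Notch2 mutant Hes1 loxP and 5940, 4935 and 5041 CPM in wild type Hes1 loxP libraries. The group means differed by -808 CPM, and by -490 CPM without wild type Hes1 loxP replicate 1, the highest library. The median log2 fold change was then -0.11, with 12 of 12 still negative. The difference between the class I and class II lists was not tested. For the Hes1 deletion in Notch2 mutant cells all 12 were positive, with a median of 0.13 and none past the threshold. In the ranking by likeness to the class II pattern, Nlrc5 came 7764th (r = -0.069).

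The counts for these other lists come from the 12-library fit without a block, and in the Notch2 comparison with Hes1 loxP they changed with the fit. A fit of the 6 loxP libraries took the replicate number as a block. That pairing was picked from these data, so the calls of this fit are a description. In it, 7.83% of genes tested passed and 10 of 12 class I genes fell. Among them were Nlrc5 (-0.49 ± 0.09, edgeR adjusted p = 0.000739), H2-K1 (-0.28 ± 0.04, adjusted p = 8.99e-05) and B2m (-0.25 ± 0.04, adjusted p = 0.000505). Of the endosomal processing genes 3 of 6 fell there, Ctss (-0.37 ± 0.05, edgeR adjusted p = 1.16e-05), Ctsl and the protease Lgmn, while Ifi30, a thiol reductase of endosomes, rose. In the interferon gamma route 1 of 10 fell. Of 8 dendritic cell markers tested there, 1 rose, Itgax (0.37 ± 0.09, edgeR adjusted p = 0.0134). Of the macrophage markers 9 of 12 fell and Cd68 rose, of the osteoclast markers 9 of 12 rose, and 5 of 8 neutrophil and 5 of 9 stromal markers fell. None of the 3 B cell markers tested passed, nor did a partner of Ciita or a gene of turnover and co-stimulation. With no filter on low counts, where 2.62% passed, 10 of 12 class I genes and 8 of 12 macrophage markers fell, 3 of 6 endosomal processing genes fell, 2 of 10 genes of the interferon gamma route fell (Irf1 among them), and 7 of 12 osteoclast markers rose. There 5 of 8 neutrophil and 6 of 10 stromal markers fell, and Itgax alone of 14 dendritic cell markers rose.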

How the data were processed

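The authors deposited 1 table per library of raw counts for each gene. The submitters' processing notes name GRCm38 and the tools HISAT2, SAMtools, Picard, HTSeq and DESeq2, while their versions and the strand setting are not given there or in the labels. Libraries were stranded mRNA, read as 75 bp pairs in 1 pool, per the labels' protocols. The 5 summary rows, 15.8 to 19.0% of a table, entered neither library sizes nor tests. IDs were named by GENCODE M21, which matched 52081 and left 3333 unnamed. The labels call the samples biological replicates. Replicates differed by more than sampling noise (chi-square per gene of 2.59 to 9.84).

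The 12 libraries entered 1 edgeR 4.0.16 fit (R 4.3.3, limma 3.58.1) in which each group had its mean, scaled by TMM and filtered by filterByExpr (minimum count 10, minimum total 15). Tests were two-sided quasi-likelihood F-tests with Benjamini-Hochberg adjustment over 13403 genes. Standard errors are derived from the F statistic. CPM was computed without TMM scaling. Correlations were computed on log2(CPM + 1) with 100000 permutations in scipy 1.17.1. The fit was checked on simulated counts. Other settings tried were DESeq2 1.42.0 on unfiltered counts, limma-voom, scaling by RLE, a minimum mean count of 50, no filter, a replicate block, only the groups compared, and each library left out. Added after the data were seen were the block within the 2 loxP groups, TMM-scaled CPM, libraries left out for correlations and the class I list, and the calls of the other lists in the paired fit and with no filter.

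Same-numbered libraries of the Notch2 mutant and wild type Hes1 loxP groups had deviations that correlated at 0.249, 0.269 and 0.135, all above 0.1. Paired values are therefore given beside that comparison, while its main values and the figures come from the fit without a block. This rests on the data, since the labels do not say what a number marks. In the other comparisons at least 1 pair was below 0.1.

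The genes and the 12 other lists were chosen with earlier results of these data known. Named genes are all 9 members, up to 4 genes per list with the smallest adjusted p, defining markers at 0 counts, and the 10 genes most alike. Irf1, H2-K1, B2m, March1, Lgmn, Ifi30, Itgax, Clec9a, Clec10a, Irf4, Ccl22, Cd68, Csf1r, Ccr2, Siglech, Ighm, Ms4a1 and Pax5 were named for their role, after their values were seen. Permutation tests planned for genes below the filter were not needed. Some genes are not reported here.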

Additional observations from a re-analysis of the deposited data

How the results depend on the processing

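Of 842 log2 fold changes of class II genes under the alternatives, 819 kept their sign, and 13 had an adjusted p below 0.05. Of these, 9 came from fits with no filter on low counts and 4 from the paired fit of the loxP groups. With no filter (25080 genes), 657 genes passed for the Notch2 mutation with Hes1 loxP, with 3 class II genes (H2-Ab1, H2-Aa and H2-Eb1). For the Hes1 deletion in wild type cells 135 genes passed, with 4 class II genes (the same 3 and Cd74), and for the interaction 63 with 2 (H2-Aa and H2-Eb1). For the Notch2 mutation in Hes1 deletion cells and for the Hes1 deletion in Notch2 mutant cells, 138 and 110 genes passed, none of class II. The cause of the added calls was not tested. With the replicate block within the 2 loxP groups, 1019 genes and 4 class II genes passed. The block over 12 libraries changed no class II call.

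For the Notch2 mutation with Hes1 loxP, DESeq2 called 242 genes, and leaving out a library gave 26 to 289. Dropping a wild type Hes1 loxP library left 26 (replicate 1) or 35 (replicate 2), dropping a Notch2 mutant Hes1 loxP library left 46 (replicate 2) or 28 (replicate 3), and 289 passed once wild type Hes1 deletion replicate 3 was dropped. For the same mutation with the Hes1 deletion, limma-voom and a mean count of at least 50 each gave 1, and leaving out a library 0 to 5 (2 with all libraries). For the Hes1 deletion in wild type cells DESeq2 gave 10, a mean count of at least 50 gave 2, and leaving out a library 3 to 26 (5 with all libraries). For the deletion in Notch2 mutant cells limma-voom gave 3, a mean count of at least 50 gave 2, and leaving out a library 3 to 6, and for the interaction 0 to 12. The 5, the 26 and the 12 came without wild type Hes1 deletion replicate 3. No class II gene passed in any of these fits. The median of the 9 genes for the Notch2 mutation with Hes1 loxP was 0.13 to 0.37 with a library left out. For the deletion in wild type cells it was 0.25 to 0.58, the highest without wild type Hes1 loxP replicate 1.

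H2-DMa turned to 0.059 under limma-voom for the Notch2 mutation with Hes1 loxP. The other changes of sign came with a library left out. For that comparison the ranges were -0.26 to 0.30 for H2-DMa and -0.032 to 0.21 for Rfx5. With the Hes1 deletion they were -0.12 to 0.21 for H2-Ab1, -0.052 to 0.19 for Cd74 and -0.48 to 0.034 for Ciita. For the deletion in wild type cells H2-DMb2 ranged from -1.004 to 0.19. In Notch2 mutant cells the ranges were -0.064 to 0.20 for H2-Ab1, -0.46 to 0.15 for H2-Aa and -0.027 to 0.21 for Rfx5. For the interaction they were -0.17 to 0.085 for H2-DMb1, -0.31 to 0.054 for Cd74 and -0.17 to 0.38 for H2-DMa. The correlation of Cd74 and H2-DMb2 ranged from -0.29 to 0.11. With TMM-scaled CPM every correlation with Cd74 stayed on its side of the threshold. At 4 to 17 counts for H2-DMb2 and 26 to 71 for Ciita per library, counting error limits what these genes can show.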
